A study of Bos taurus with 6 samples.

Results

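The 9 genes described here encode the inhibin and activin subunits (INHA, INHBA and INHBB), the activin-binding proteins (FST and FSTL3) and the activin receptors (ACVR1, ACVR1B, ACVR2A and ACVR2B). They were taken by their symbols from a table of 24415 transcript clusters, each a set of probes for a gene or part of it, and each of the 9 was read by 1 cluster. The table holds 6 bovine gene arrays of primary granulosa cells, 3 from cultures treated with 50 μM PD98059, a MEK inhibitor that blocks ERK phosphorylation, and 3 from cultures given its vehicle, DMSO. All cultures were grown for 4 d without serum and with FSH, IGF-1 and androstenedione, and were exposed for 2 h on day 2. The medium was then exchanged, by 70% per the labels and for fresh medium free of inhibitor per the methods, so how much PD98059 stayed on the cells is not settled. The cells were aspirated from small and medium follicles of cow ovaries, frozen and thawed for culture, and whether the 3 cultures of a group came from separate animals is not stated. The tests therefore rest on the spread between cultures, which may be smaller than that between animals.

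Inhibins and activins are dimers of shared subunits. The α subunit encoded by INHA pairs with a β subunit to form an inhibin, which restrains FSH release from the pituitary, whereas β subunits pair with each other to form activins, which act locally in the follicle and favor FSH responsiveness of granulosa cells. Activins bind the type 2 receptors ACVR2A and ACVR2B, which recruit the type 1 receptor ACVR1B and lead to phosphorylation of SMAD2 and SMAD3, and the secreted proteins follistatin (FST) and follistatin-like 3 (FSTL3) bind activins and keep them from their receptors.

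Values are log2 signals summarized by the authors with the Robust Multichip Average (RMA) method, and every change is PD98059 minus DMSO on this log2 scale. A cluster was called changed at a Benjamini-Hochberg adjusted p under 0.05 over all clusters and a fold above 1.4, which is 0.49 on the log2 scale, in a two-sided limma fit. PD98059 raised 4 of the 9 genes, INHA, INHBA, INHBB and FST, and lowered 2, FSTL3 and ACVR1. Among all clusters, 0.909% were called higher and 1.78% lower. When only the 15300 clusters above the background level given below were fitted, 238 were called higher and 465 lower. The other 3 genes, ACVR1B, ACVR2A and ACVR2B, did not pass. The median size of the change, without its sign, was 0.58 over the 9 genes and 0.12 over all clusters, and the median signed change was 0.07 and 0.01. Because probes differ in brightness, levels of different genes are not ranked against each other. All 9 lay above 3.72, the level taken as background, which is the 95th percentile of the means of 377 olfactory receptor clusters.

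INHA, the subunit that makes a dimer an inhibin, had the largest estimated rise of the subunits, though its confidence interval overlapped those of INHBA and INHBB. Its log2 values were 10.80, 10.75 and 10.74 in the PD98059-treated cultures, against 9.86, 9.88 and 10.01 in the DMSO-treated cultures. The lowest treated array was thus 0.73 above the highest control array, and the groups did not overlap. The log2 fold change was 0.85 (standard error 0.07, adjusted p = 0.00323 from limma), a 1.80-fold rise with a 95% confidence interval of 1.60 to 2.02. It ranked 55 from the top among the changes of all 24415 clusters.

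INHBA encodes the βA subunit, found in inhibin A and activin A. It measured 12.24, 12.26 and 12.22 in PD98059-treated cells, and 11.60, 11.70 and 11.67 in DMSO-treated cells. The treated arrays were all higher by at least 0.52, and both groups were tight, with an SD of 0.02 in the treated cultures and 0.05 in the controls (n = 3 each). The change was 0.58 (standard error 0.06, adjusted p = 0.00644 from limma), a 1.50-fold rise with an interval of 1.35 to 1.66. The lower end of this interval is below the fold limit.

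INHBB, which encodes the βB subunit of inhibin B and activin B, varied more between cultures. Its values were 9.89, 10.09 and 9.90 with PD98059 and 9.18, 9.35 and 9.32 with DMSO. PD98059 replicate 2 was the highest of the treated arrays and DMSO replicate 1 the lowest of the controls, while the groups stayed 0.54 apart. The change of 0.68 (standard error 0.09, adjusted p = 0.0106 from limma), a 1.60-fold rise with an interval of 1.38 to 1.85, did not pass without DMSO replicate 1 (0.63, adjusted p = 0.0541).

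**Figure D1:**
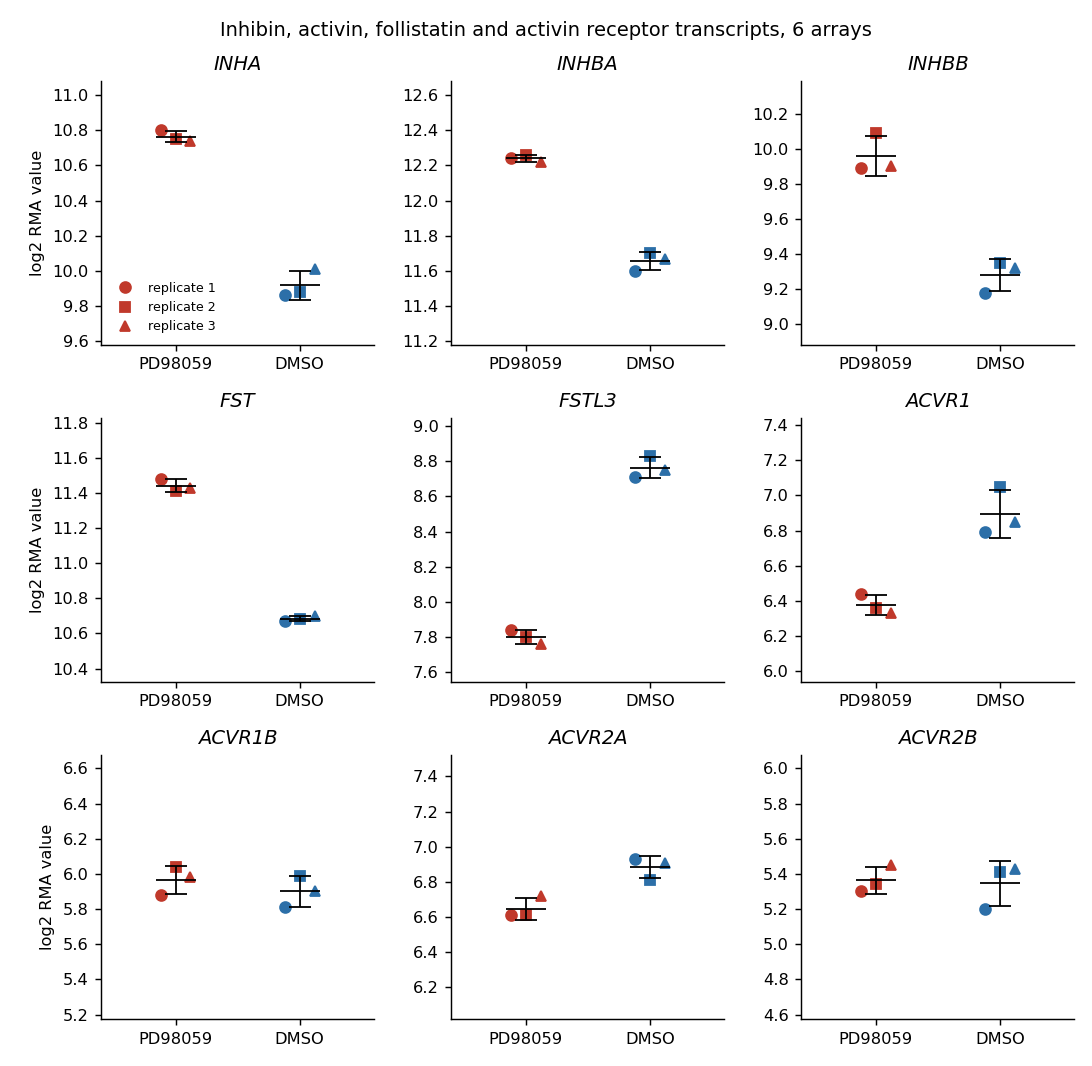
Log2 RMA value (y axis, a span of the same height in every panel) of each gene in PD98059-treated cultures (red, left) and DMSO-treated cultures (blue, right); symbols mark the replicate number, and the black lines give the mean and SD of 3 arrays. INHA, INHBA, INHBB and FST lie higher with PD98059, FSTL3, ACVR1 and ACVR2A lie lower without overlap, and the arrays of ACVR1B and ACVR2B overlap.

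The genes of both activin-binding proteins changed, in opposite directions. FST had the tightest replicates of the 9 genes. It measured 11.48, 11.41 and 11.43 in the PD98059-treated cultures and 10.67, 10.68 and 10.70 in the DMSO-treated cultures, so that the groups lay 0.71 apart. The log2 fold change was 0.76 (standard error 0.06, adjusted p = 0.00306 from limma), a 1.69-fold rise with an interval of 1.53 to 1.87, and it ranked 81 from the top among all clusters. The spread of FST within groups, an SD of 0.03, was smaller than that of nearly all clusters (percentile 1.5).

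FSTL3, a follistatin relative that also binds activins and myostatin, fell in every treated culture. Its values were 7.84, 7.80 and 7.76 with PD98059, and 8.71, 8.83 and 8.75 with DMSO. The highest treated array was 0.87 below the lowest control array, the widest gap of the 9 genes. The log2 fold change was −0.96 (standard error 0.07, adjusted p = 0.00218 from limma), a 1.95-fold fall with an interval of 1.75 to 2.18, and it was the change ranked 84 from the bottom among all clusters.

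Of the 4 receptors, ACVR1 alone passed the threshold. ACVR1 is a type 1 receptor known mainly for signaling by BMPs. It measured 6.44, 6.36 and 6.33 in PD98059-treated cells and 6.79, 7.05 and 6.85 in DMSO-treated cells. The groups were 0.35 apart, with DMSO replicate 2 above the other controls. The change was −0.52 (standard error 0.09, adjusted p = 0.0257 from limma), a 1.43-fold fall with an interval of 1.24 to 1.66. This call was lost when any 1 of the 6 arrays was left out (changes of −0.57 to −0.44, adjusted p of 0.0612 to 0.0921), with an unmoderated, equal-variance test of each cluster (adjusted p = 0.0776) and, by the fold limit, with a repeated quantile normalization (−0.48). It was also lost with the replicate number as a block (adjusted p = 0.0922 from limma).

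The receptors that bind activins as ligands changed less. ACVR2A, a type 2 receptor, had values of 6.61, 6.61 and 6.72 with PD98059 and 6.93, 6.81 and 6.91 with DMSO. The treated arrays were all lower, by a gap of 0.09, and the difference of −0.24 (95% confidence interval −0.41 to −0.07) did not pass in limma (unadjusted p = 0.0133, adjusted p = 0.131). Groups without overlap were common in these data, in 12.6% of all clusters with the treated arrays higher and in 13% with the treated arrays lower. Of the 9 genes, 4 were separated on the higher side and 3, ACVR2A among them, on the lower.

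ACVR2B, the other type 2 receptor of activins, measured 5.30, 5.34 and 5.45 in PD98059-treated cultures against 5.20, 5.41 and 5.43 in DMSO-treated cultures. The groups overlapped, and the difference was 0.02 (interval −0.19 to 0.23, adjusted p = 0.942 from limma), with a sign that turned when the arrays were centred on their medians or when either DMSO replicate 1 or PD98059 replicate 3 was left out. ACVR1B, the type 1 receptor of activins, measured 5.88, 6.04 and 5.98 with PD98059 and 5.81, 5.99 and 5.90 with DMSO. Its arrays overlapped as well, with a difference of 0.07 (interval −0.12 to 0.26, adjusted p = 0.705 from limma). These intervals leave out a change of either receptor beyond the fold limit of 0.49.

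**Figure D2:**
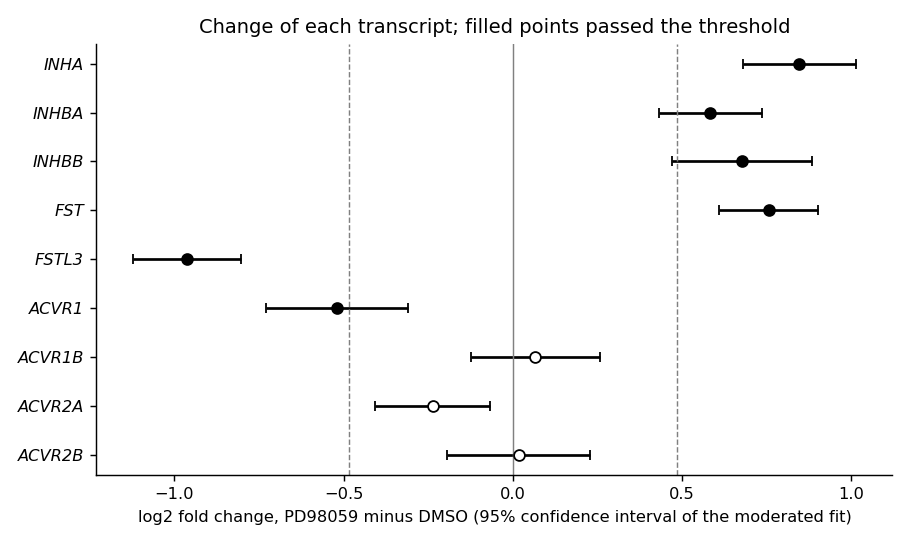
Log2 fold change of each gene (x axis, PD98059 minus DMSO) with its 95% confidence interval from the moderated fit; filled points passed the threshold, and the dashed lines mark the fold limit of 1.4. The intervals of INHA, FST and FSTL3 lie wholly beyond the fold limit, those of INHBA, INHBB and ACVR1 cross it, and those of ACVR1B, ACVR2A and ACVR2B lie inside it.

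Whether 2 of these transcripts changed by unequal amounts was asked within each array, by the log2 difference between them. This was done for 4 pairs, each with an exact two-sided permutation test of 3 arrays against 3 that cannot go below p = 0.1, so none could reach 0.05. FST minus FSTL3 was 3.64, 3.61 and 3.67 with PD98059 and 1.96, 1.85 and 1.95 with DMSO. The difference widened by 1.72 in the treated cells, a 3.29-fold shift of FST relative to FSTL3, in all 3 treated arrays beyond all 3 controls (exact permutation p = 0.1, adjusted p = 0.2 over the 4 pairs). Because FST rose and FSTL3 fell, each without overlap, this separation and its p followed from the changes of the single genes. This pair is therefore no further test.

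Among the subunits the shifts were small. INHBA minus INHA was 1.44, 1.51 and 1.48 with PD98059 and 1.74, 1.82 and 1.66 with DMSO, a change of −0.26 with no overlap (exact permutation p = 0.1, adjusted p = 0.2). This was a 1.20-fold shift of INHA relative to INHBA. INHBB minus INHA averaged −0.80 ± 0.13 with PD98059 and −0.63 ± 0.09 with DMSO (SD, n = 3 each, exact permutation p = 0.3), and the groups overlapped. INHBA minus INHBB averaged 2.28 ± 0.10 with PD98059 and 2.37 ± 0.04 with DMSO (SD, n = 3 each), where PD98059 replicate 1 reached the control range (exact permutation p = 0.3).

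**Figure D3:**
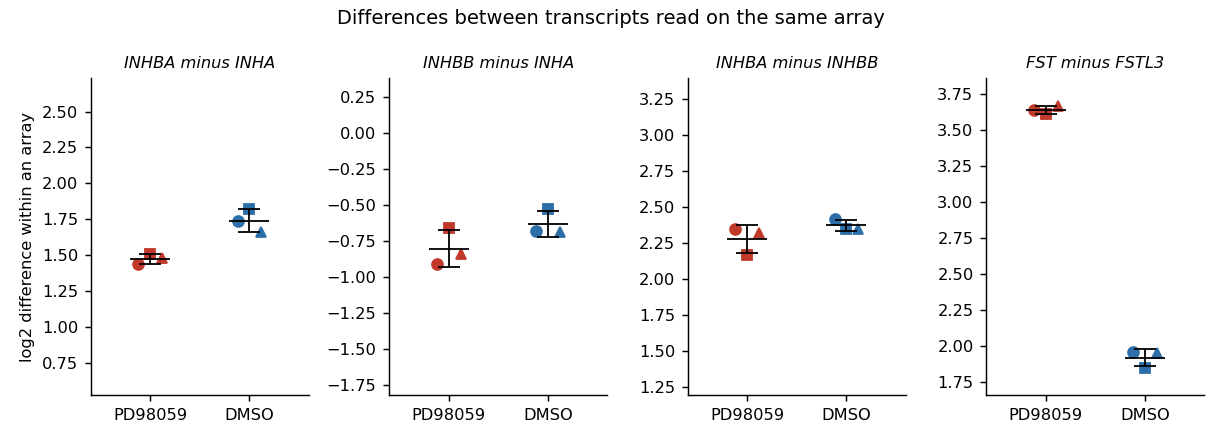
Log2 difference between 2 transcripts within an array (y axis, a span of the same height in every panel) in PD98059-treated (red, left) and DMSO-treated cultures (blue, right); symbols mark replicates, black lines the mean and SD of 3 arrays. FST minus FSTL3 lies at 3.64 on average with PD98059 and 1.92 with DMSO, whereas the subunit pairs shifted by 0.26 or less.

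The genes of the wider pathway were taken from lists by role. Of 12 other ligands of activin and BMP receptors, 6 of them above background, none was called higher and 3 were called lower. Their median change, which includes the ligands below background, was −0.13 against 0.01 over all clusters. INHBE, which encodes the βE subunit known chiefly from liver, fell by 0.93 (standard error 0.08, adjusted p = 0.00323 from limma), to a mean of 4.56 with PD98059 against 5.50 with DMSO. The β subunits thus moved both ways, with INHBA and INHBB higher and INHBE lower, while INHBC lay below background (3.61 with PD98059 and 3.48 with DMSO). BMP4, one of the BMPs made in the ovary, had a change of −1.14 and BMP2 one of −0.52. The BMP4 call was lost with the unmoderated test. That of BMP2 was lost in most fits without 1 array, with the unmoderated test, with the repeated quantile normalization and with the replicate number as a block. Among those that did not pass were GDF11 (−0.15), BMP6 (−0.42) and BMP7 (0.03), and the oocyte ligands GDF9 and BMP15 were below background.

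None of 10 measured other receptors, 9 of them above background, passed in either direction (median 0.12). The BMP receptors BMPR2 (0.15), BMPR1A (0.09) and BMPR1B (0.11) changed little. TGFBR3, named here after its values were seen, encodes betaglycan, the co-receptor that gives inhibin its hold on activin receptors. It had a mean of 6.74 with PD98059 and 6.26 with DMSO. The change of 0.48, with an adjusted p of 0.0346 from limma, was just inside the fold limit. The gene passed with a repeated quantile normalization. Its adjusted p was too high to pass with the replicate number as a block (0.0916) or with the unmoderated test (0.0946). The same held in each fit without 1 array (0.0756 to 0.106 from limma). The 10 other antagonists, 6 of them above background, likewise held no called gene (median −0.02). FSTL1 was at 0.00, GREM1 at −0.14 and CHRD at −0.10. FST and FSTL3 were thus the called genes among the 12 antagonists measured, but a change of those below background could be missed.

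Of 14 SMADs and their regulators, 1 was called higher and 1 lower (median −0.09). SMAD2, a transducer of activin signals, rose by 0.66 (standard error 0.06, adjusted p = 0.00477 from limma), to 9.69 with PD98059 against 9.03 with DMSO. SMAD3 (−0.04) and SMAD4 (0.05), its partners, did not pass. PMEPA1, which restrains SMAD2 and SMAD3, fell by 0.61 (adjusted p = 0.0129). This call was lost without any 1 of the DMSO arrays and with the replicate number as a block. None of 4 measured proprotein convertases, which cleave ligand precursors, passed (median −0.15). Of these, 3 were above background: FURIN at −0.08, PCSK7 at −0.21 and PCSK1 at −0.29.

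Transcription factors described at the promoters of inhibin subunit or follistatin genes formed the last list, in which 3 of 12 were called higher and 1 lower (median 0.13). FOXL2, a granulosa factor that acts on the follistatin gene, rose by 0.64 (adjusted p = 0.0142). This call was lost with the unmoderated test, with the replicate number as a block and when DMSO replicate 1 or PD98059 replicates 1 or 2 were left out. The estrogen receptors ESR1 (0.61, adjusted p = 0.00681) and ESR2 (0.50, adjusted p = 0.0253) rose too, but ESR2 lay close to the fold limit. ESR1 was read by 2 clusters, of which the brighter is given. Their mean changed by 0.53 and still passed. The ESR2 call was lost in most fits without 1 array, with the unmoderated test, with the arrays centred on their medians and with the replicate number as a block. EGR1, an early gene downstream of ERK, fell by 1.04 (adjusted p = 0.00323). NR5A2 (0.43, adjusted p = 0.0177) was inside the fold limit, and GATA6 (0.20) and GATA4 (−0.04) did not pass. GATA4 was read by 2 clusters as well, and their mean (−0.11) did not pass either. All these p-values are from limma over all clusters.

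**Figure D4:**
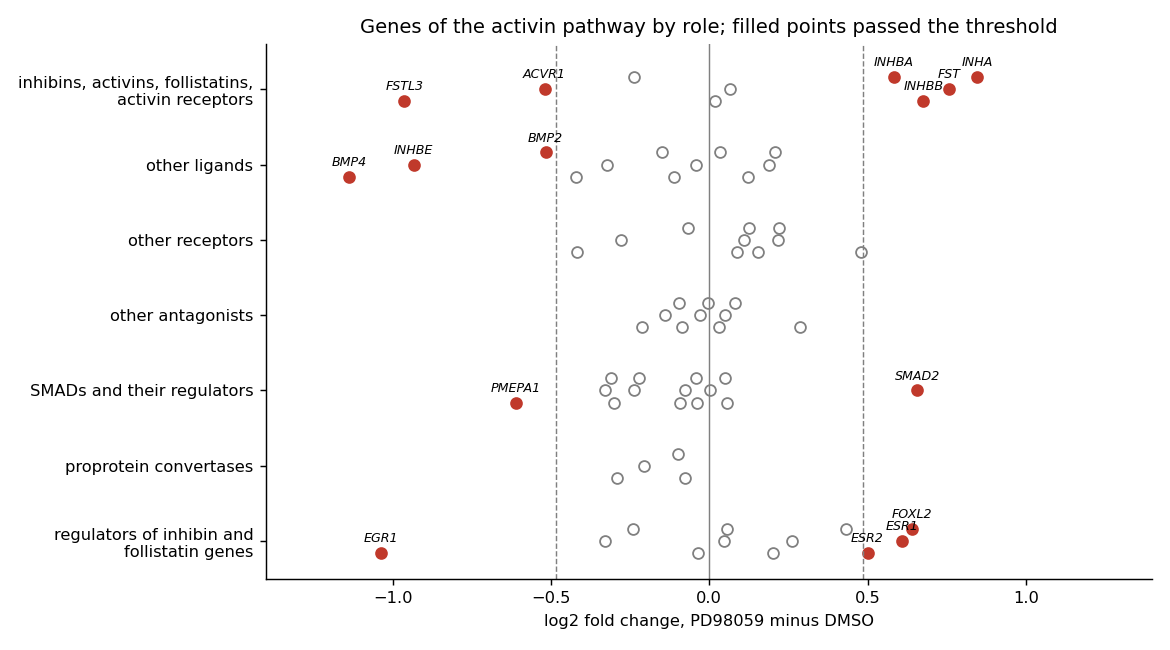
Log2 fold change (x axis, PD98059 minus DMSO) of each measured gene by role, with the 9 genes in the top row; filled, labelled points passed the threshold, open points did not, and the dashed lines mark the fold limit. Called genes stand on both sides among the 9 genes, and none is called among the other receptors, the other antagonists and the proprotein convertases. Genes below background are included.

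Markers of the cell types of the follicle were read on the same arrays. All 8 granulosa markers were above background, and 4 of them were called higher and none lower, namely CYP19A1 (2.01), FSHR (1.12), SERPINE2 (0.64) and FOXL2. GATA4 (−0.04), AMH (0.24), GJA1 (0.32) and NR5A2 (0.43) did not pass. The paper reports CYP19A1, FSHR and FOXL2 mRNA as raised by PD98059 in its PCR data too. The list therefore does not measure granulosa cell content apart from the treatment. Summed over this list, the log2 level was 13.32 to 13.38 with PD98059 and 12.78 to 12.81 with DMSO. Such sums, here and below, add linear signals, so the brightest genes weigh most and not all genes of a list count alike. In this list these are SERPINE2 (12.01 with PD98059, 11.37 with DMSO) and GJA1 (11.90 and 11.58). In the theca list the brightest is INSL3 (8.86 and 8.25). Of 6 fibroblast markers, all above background, PDGFRA (−0.59) was called lower and none higher, and their summed level was 12.89 to 12.97 with PD98059 against 13.00 to 13.02 with DMSO. Of 5 theca markers INSL3 (0.61) was called higher (summed level 9.44 to 9.49 with PD98059, 9.15 to 9.22 with DMSO), while CYP17A1, which defines theca cells, was below background (3.64 with PD98059 and 3.71 with DMSO). VWF (−0.57, a call lost in most fits without 1 array) was called lower among 4 endothelial markers, of which it alone was above background (summed level 5.75 to 5.79 with PD98059, 5.995 to 6.149 with DMSO). The 5 immune markers, 3 of them above background, held no called gene (summed level 7.59 to 7.93 with PD98059, 7.53 to 7.65 with DMSO). Neither did the 6 oocyte markers, all of which were below background (5.39 to 5.57 with PD98059, 5.33 to 5.43 with DMSO). The part of these differences in the changes of the 9 genes was not tested, and in RNA of whole cultures fewer cells of a type and less RNA per cell cannot be told apart.

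The genes outside these 9 whose profile over the 6 arrays was most like that of INHA, INHBA, INHBB or FSTL3 were sought among 13217 named clusters above background. Likeness was the root mean square difference of the log2 values, each cluster centred on its own mean, and because the arrays form 2 groups it mainly reflects a change of the same size. Nearest to INHA were GCLC, which serves glutathione synthesis (0.038), the kinase PRKD1 (0.042) and the lipid phosphatase PLPP3 (0.047). The genes nearest to INHBA were the fatty acid transporter SLC27A1 (0.028), ARRDC4 (0.030) and RASL11B (0.036). INHBB was closest to the integrin subunit ITGA2 (0.035) and to the glycan-modifying sulfotransferases HS6ST2 (0.048) and CHST8 (0.055). For FSTL3 they were PSPH, an enzyme of serine synthesis (0.054), the activin subunit INHBE itself (0.055) and the transcription factor CREB3L1 (0.062).

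The calls of INHA, FST and FSTL3 held in each fit without 1 array, with adjusted p-values from limma of 0.0172 to 0.023 for INHA, 0.016 to 0.023 for FST and 0.0115 to 0.0173 for FSTL3. INHBA, too, passed without any 1 array (0.0291 to 0.0397), but not with the replicate number as a block (0.0505).

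**Figure D5:**
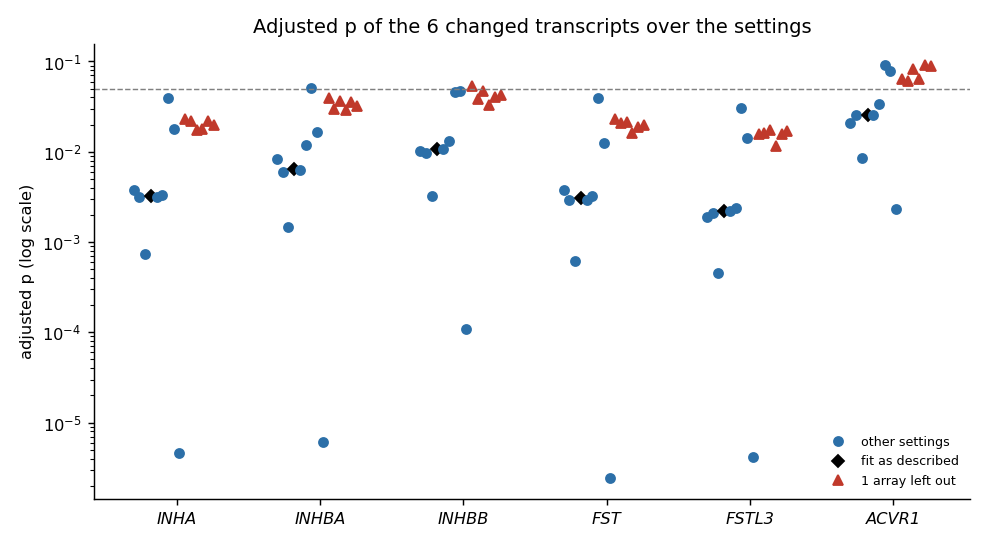
Adjusted p (y axis, log scale) of the 6 called genes in the fit as described (black), with 1 array left out (red triangles) and in the other settings that keep all arrays and the fold limit (blue); horizontal offsets within a gene carry no meaning, and the dashed line marks 0.05. INHA, FST and FSTL3 stay under the line at all points shown, while 1 point of INHBA (the replicate block) and 1 of INHBB (without DMSO replicate 1) lie above it. ACVR1 is above it with any 1 array left out, with the replicate block and with the unmoderated test.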

How the data were processed

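Granulosa cells of 3 PD98059-treated and 3 DMSO-treated cultures were measured on Affymetrix Bovine Gene 1.0 ST arrays. The authors reduced background and normalized the arrays in Expression Console and summarized each transcript cluster by RMA, and the deposited table holds the log2 values to 2 decimals, from 0.60 to 13.85. The 146490 values of the series' own value table are the same. The genome build of the clusters was not given in the sources used here. RMA gives the arrays a common distribution (array medians 4.68 to 4.74), and a change common to most transcripts would be removed by it. Arrays give no counts, and their number limits the precision, with a median standard error of 0.10.

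All 24415 clusters were fitted with limma 3.58.1 in R 4.3.3, with treatment as the factor, 4 residual and 2.8 prior degrees of freedom, and no filter. The same limits are in the study's methods, which name an analysis of variance and do not say whether it was moderated. The unmoderated alternative run here is an equal-variance test of each cluster, outside the array software. The fit was also run on simulated data with known changes in 200 clusters. Their noise was normal and independent between clusters and arrays, as the fit assumes, so effects shared within an array or culture were not covered. Python 3.11.15 with scipy 1.17.1 gave the permutation tests. Clusters of other genes were named through RefSeq accessions of the ARS-UCD2.0 annotation (16051 clusters) or the symbol in the table (3632), and a gene with several clusters is led by the brightest. Genes were named in the text by rule: the 9 genes, the called genes of each list, up to 3 others by level, and the 3 most alike profiles. INHBC, GDF9, BMP15, TGFBR3 and CYP17A1 fall outside it and were chosen after their values were seen. The members and lists were chosen with earlier results of these data known. The alternatives were a replicate block, median centring, a repeated quantile normalization, a filter at background, a variance trend, array weights, the unmoderated test, no fold limit, the mean of a gene's clusters and leaving out each array. Promoter and protein sequences are not used here.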

Additional observations from a re-analysis of the deposited data

How the results depend on the processing

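Each of the 9 genes was refitted under 15 alternatives. Over these 135 refits, 121 kept their direction and their side of the threshold, 11 lost the call and 3 changed the sign of a value that was not called. Not all of these refits could lose a call. Each gene has 1 cluster, so the mean of its clusters left its values unchanged, and dropping the fold limit could only add calls. Genes that were not called had no call to lose. Of the called genes, ACVR1 kept its call in 6 of 15. With the replicate number as a block, 75 clusters were called higher and 162 lower over the whole table, against 222 and 434 without it, INHBA did not pass (0.58, adjusted p = 0.0505 from limma), nor did ACVR1 (adjusted p = 0.0922), and 1 of the 9 genes was called lower. Of the called genes outside the 9, BMP2, PMEPA1, FOXL2, ESR2, INSL3, PDGFRA, VWF, SLC27A1 and RASL11B did not pass with the block. The replicate numbers are not known to pair the cultures: same-numbered arrays of the 2 treatments deviated from their group means with correlations of 0.037 to 0.051 over clusters. Each PD98059 array correlated best with the DMSO array of its own number (3 of 3), but deviations from a group mean cancel within the group. These matches are therefore not independent and do not settle whether the cultures were paired. The unmoderated test called 123 clusters higher and 227 lower, and without the fold limit 421 and 689 passed. With any 1 array left out, 97 to 160 clusters were called higher and 174 to 331 lower. The number of the 9 genes called lower was 1 in place of 2 with the repeated quantile normalization, with the unmoderated test and in each fit without 1 array, ACVR1 being the gene lost. The number called higher was 4 in all alternatives but the block and the fit without DMSO replicate 1, where it was 3. The change of ACVR2B, 0.02 in the fit as described, turned to −0.0167 with the arrays centred on their medians, and ran from −0.0567 to 0.0583 without 1 array. Among the alternatives, the pair differences were recomputed, as chosen after seeing the data, with the repeated quantile normalization and without each array, and all 4 kept their direction. For FST minus FSTL3 this followed from the opposite changes of its genes. Signals of ACVR2B (5.36 on average) and ACVR1B (5.93) lie nearest to background among the 9 genes, which describes array signal and does not rank expression.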
